A study of Homo sapiens with 27 samples.

Results

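The DNA replication machinery is described here through 47 genes, picked by symbol from the 60683 genes of the deposited tables. The 47 genes encode origin licensing factors, the replicative helicase, the polymerases, the sliding clamp and its loader, Okazaki fragment enzymes, the single-stranded DNA binding complex RPA, enzymes of nucleotide supply, fork protection factors, and chromatin and turnover factors that act at the fork. All 47 passed the filter on low counts and were among the 16173 genes tested.

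Messenger RNA was measured in MCF10DCIS.com, a human cell line derived from the MCF10A breast series and used to model ductal carcinoma in situ (DCIS). The crystal groups are COM, plates of calcium oxalate monohydrate, and 4 shapes of calcium oxalate dihydrate, namely DB (dumbbells), SPH (spheres), TK (thick bipyramids) and TN (thin bipyramids). Each form was added at 0.1 mg/mL to flasks seeded 6 h earlier with 500000 cells, and gave 4 libraries lettered A to D. Control flasks without crystals gave 7 libraries, lettered A to G. How long the cells were exposed is not stated in the labels, and all groups are cultures of 1 line. The labels do not tell whether replicate libraries are separate cultures, so the tests measure the spread between these libraries, which may be partly technical.

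Library totals ran between 13115669 and 38672521 expected counts. By serial number the libraries fall into 3 sets. Set 1 (10 libraries) holds Control A and B with the A and B replicates of every form but TK. Set 2 (12 libraries) holds the C replicates of those forms, all 4 TK libraries and Control C to F, and set 3 (5 libraries) holds the D replicates and Control G. The set was a term in the model. TK lies in set 2 only, so its comparison rests on the set 2 controls and on set differences taken as equal in all groups. Controls of the other sets thus also bear on it. Fragments averaged 297 nt in TN C and at most 243.2 nt in the rest of set 2, so by this measure its place in set 2 is doubtful. Epithelial markers of the line such as KRT5 (1084 to 1988 TPM, a measure per transcript length) were high in every library. Of the leukocyte markers PTPRC and CD3E were at or under 0.29 TPM, while CD14 was at 2.05 to 8.48, CD68 at 2.81 to 19.23 (highest in DB D) and LYZ at 0.09 to 50.87 TPM (highest in TN B). Of the fibroblast markers DCN, LUM, COL1A2, COL3A1 and PDGFRB were at or under 0.98 TPM and COL1A1 was at 2.84 to 7.8 TPM. The endothelial markers PECAM1, VWF, CDH5 and KDR summed to 1.45 TPM in TN C. In the rest of set 2 they summed to 0.61 to 2.31 TPM, and in set 1 to 2.53 to 6.68 TPM. By this sum TN C lay with set 2, unlike by fragment length, so its place stays uncertain. The part of these transcripts in the results was not tested. TN B stood apart in liver-type transcripts, with ALB at 434.94 TPM and the liver list summing to 1231.97 TPM, against 54.15 to 198.94 TPM in the other libraries. In bulk RNA, fewer cells in S phase and less RNA per cell cannot be told apart.

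Replication begins when the origin recognition complex, CDC6 and CDT1 load the ring-shaped MCM helicase onto DNA in G1. In S phase CDC45 and the GINS complex join the ring to form the active helicase, polymerase alpha with primase starts each strand, and polymerases delta and epsilon extend the strands while held by the PCNA clamp. Many of these genes are known targets of the E2F transcription factors, which are released from the retinoblastoma protein as cells commit to S phase.

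Because many of the genes are known E2F targets, promoters of some named members that hold E2F-type letters are shown at those letters. Other named members hold no such letters, RRM2, CDC45, MCM10, PRIM1 and FEN1 among them. Some that hold them, such as MCM2 and POLA1, are not shown. Promoters (250 bases before to 50 after the annotated start, RefSeq, GRCh38.p14) were found for 41 of the 47 genes, and not for MCM4, MCM5, GINS4, POLD3, RPA2 and RPA3. Each line gives 30 bases, 5′ to 3′ on the strand of the gene, with the match in capitals:
CLSPN (chr1:35769965-35769994, minus strand): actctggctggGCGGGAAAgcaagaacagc
UHRF1 (chr19:4909476-4909505, plus strand): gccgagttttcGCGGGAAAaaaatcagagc
CDC6 (chr17:40287875-40287904, plus strand): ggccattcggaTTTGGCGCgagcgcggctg
DTL (chr1:212035729-212035758, plus strand): cgtgacgtcagTTTGGCGCggagtttggcg
POLE2 (chr14:49688201-49688230, minus strand): ctgcggcggtgGCGCCAAAtcgcaaatatg
PCNA (chr20:5126663-5126692, minus strand): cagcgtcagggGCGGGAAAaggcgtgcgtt
GINS2 (chr16:85688967-85688996, minus strand): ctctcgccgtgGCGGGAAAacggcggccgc
TYMS (chr18:657603-657632, plus strand): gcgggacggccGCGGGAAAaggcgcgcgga

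The letters searched were TTTGGCGC, TTTCCCGC, TTTCGCGC and TTTGCCGC on both strands. They occurred in 20 of the 41 promoters (48.78%), against 1164 of all 35116 promoters in the table (3.31%). Of the 9 helicase promoters in the table, 7 held them, the highest share of any subset with more than 3 promoters. CCAAT, the letters bound by NF-Y, occurred in 26 of the 41 (63.41%), against 34.61% of all promoters. TTTGAA, the core of the cell-cycle element of mitotic promoters, occurred in 1 of the 41 (2.44%), in RRM1, against 15.16% of all promoters. A match is a description of the letters and does not show binding.

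**Figure D1:**
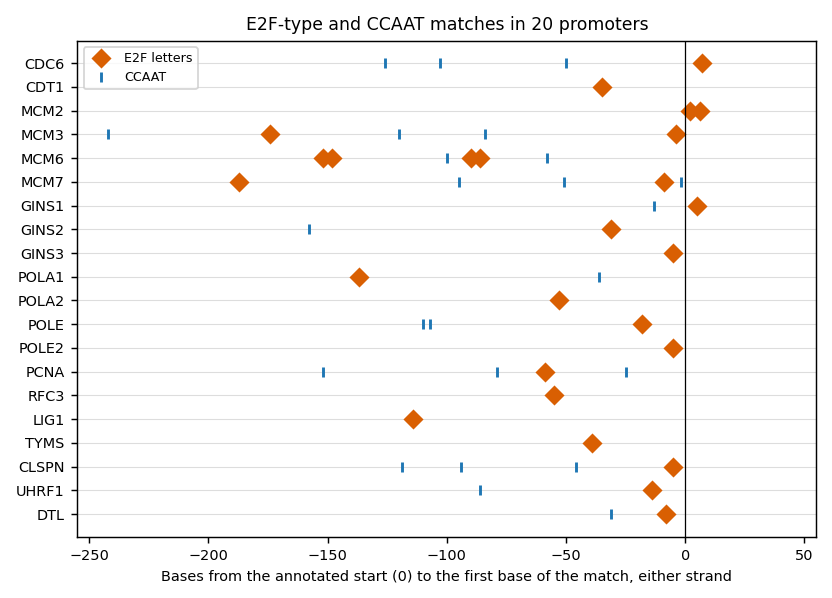
Positions of E2F-type letters (diamonds) and CCAAT (ticks) in the 20 promoters that hold E2F-type letters, in bases from the annotated start, either strand. MCM2, MCM3, MCM6 and MCM7 hold more than 1 E2F-type match, and the CLSPN match begins 5 bases before the start.

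In untreated cells the members covered a wide range of levels per length. PCNA was the most abundant at 169 ± 14.8 TPM, followed by MCM7 at 159 ± 32.6 TPM and thymidine kinase TK1 at 129 ± 16.8 TPM (SD, n = 7). CLSPN was the least abundant at 4.09 ± 1.04 TPM, below POLA1 at 5.95 ± 1.33 TPM and MCM10 at 6.11 ± 1.58 TPM (SD, n = 7). The values below are CPM, counts scaled to library size, which compare 1 gene between libraries but not different genes with each other.

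The replication genes moved in opposite directions with different crystal forms. With TK 29 of the 47 rose and none fell, with TN 12 rose and none fell, with DB 20 fell and none rose, with COM 5 fell and none rose, and with SPH none was called, 1 having an unadjusted p under 0.05 and DESeq2 calling 0. Calls are at an adjusted p under 0.05 in edgeR's quasi-likelihood test, with Benjamini-Hochberg adjustment over all genes tested. Among all genes the shares called higher or lower were 15.4% with TK, 11.7% with TN, 10% with DB, 6.36% with COM and 0.111% with SPH. In the direction of the members they were 8.04% higher with TK, 6.84% higher with TN, 4.1% lower with DB and 2.42% lower with COM. A joint test called 42 of the 47 as different between any of the 6 groups, against 23.2% of all genes. A joint test between the 5 crystal forms also called 42 of the 47, against 16.3% of all genes. Its contrasts leave out the control group, but the controls stayed in the fit and helped to estimate the set term and the spread. The 5 members not called in either joint test were CDT1, POLD2, POLE, RFC1 and RPA3.

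The direction was shared by nearly all members, called or not. The log2 fold change was above 0 for 45 of the 47 with TK (median 0.29), 45 with TN (median 0.19) and 21 with SPH (median -0.01). It was below 0 for 46 with DB (median -0.24) and 41 with COM (median -0.16). The median over all genes tested lay between -0.016 and -0.003 in each comparison. The 5 comparisons share the same controls, so they are not independent of each other.

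In TK the separation from the controls was visible library by library. For 32 of the 47 members all 4 TK libraries lay above all 7 controls, against 8.14% of all genes. All 4 COM libraries lay below every control for 7 members, against 1.8% of all genes, and all 4 DB libraries for 4 members, against 1.69%. In TN only POLE2 lay above every control in all 4 libraries, against 1.57% of all genes. These ranges take no account of the library set. Set 2 controls ran higher than set 1 controls in the members (median log2 difference 0.22). All TK libraries are in set 2, but of TN only TN C is, so the TK and TN counts are not alike in this. By a measure that also grows with library size, TK libraries differed less from each other than those of any other form. As chi-square over degrees of freedom, the difference of 2 TK libraries was 2.459 to 8.333. For 2 controls it was 3.058 to 70.59. In the other forms it was 10.93 (DB) at lowest and 70.27 (TN) at highest, but most of their pairs cross sets. Library totals also differed, with 15859722 to 18803606 expected counts in TK and 13115669 (SPH D) to 38672521 (TN B) in the other forms. Whether the TK libraries are separate cultures was not tested, so all 4 lying above the controls need not be 4 independent observations. No member stood clear of the controls in SPH, where 0.371% of all genes lay above and 0.309% below.

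**Figure D2:**
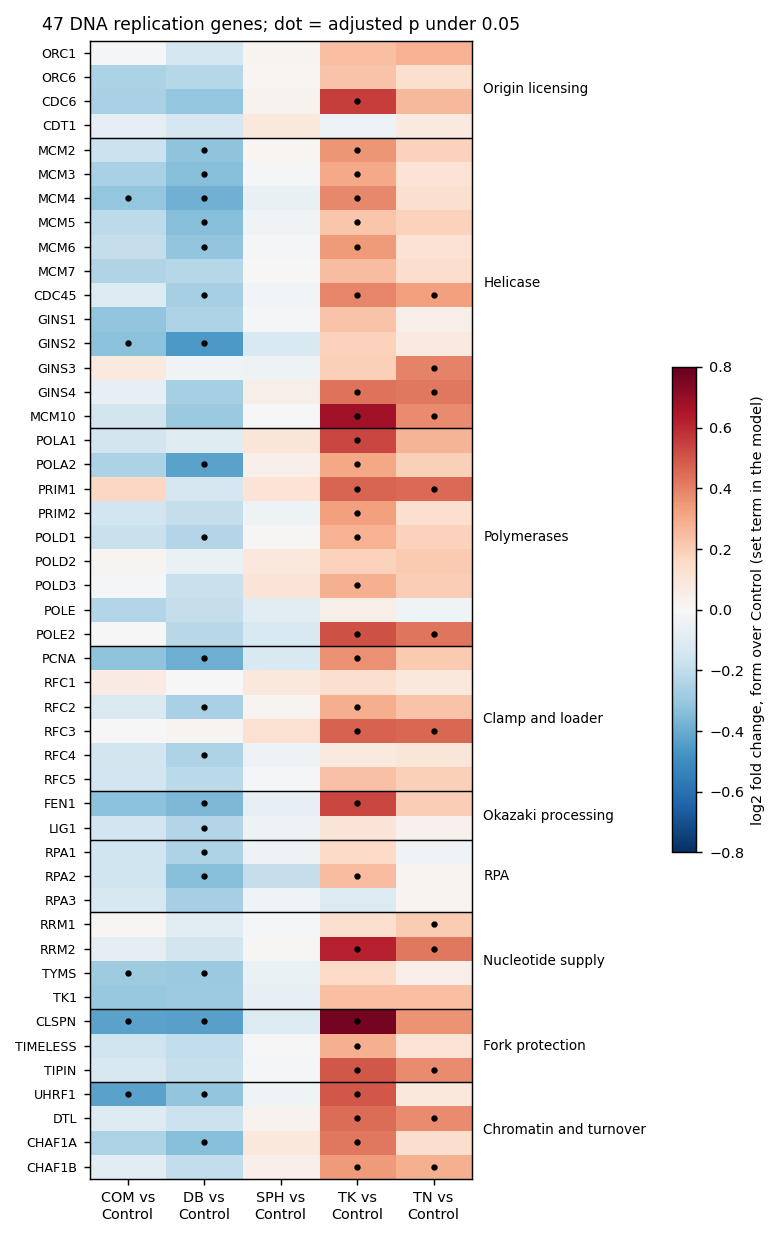
log2 fold change of each of the 47 genes (rows, by role) in COM, DB, SPH, TK and TN over Control, with the library set in the model; a dot marks an adjusted p under 0.05. The TK and TN columns are red with 29 and 12 dots, the DB and COM columns blue with 20 and 5 dots, and the SPH column holds no dot.

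These counts rest unequally on single libraries. Leaving out 1 library at a time gave 22 to 30 called members for TK, and 19 of the 29 kept the call in all 11 such fits. For TN the count was 5 without TN A, 7 without Control A and 19 without TN C, and 5 of 12 kept the call in every fit. For DB it was 6 without DB D, 8 without DB A, 11 without DB B, 10 without Control G, 11 without Control F, and 13 without Control A or without Control C. Of the 20 DB calls 6 were kept in every fit, those of GINS2, MCM4, MCM5, POLA2, RPA2 and TYMS. For COM it was 1 without COM B, 2 without COM A, COM C, Control F or Control G, and 8 without COM D, and the UHRF1 call alone was kept in every fit. With mean fragment length as a covariate 9 DB members were called. The DB libraries had fragments of 233.4 to 319.1 nt, against 197.6 to 269.3 nt in the controls, and the part of this difference in the DB result was not tested further.

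Origin licensing was described by ORC1 and ORC6, subunits of the origin recognition complex, and the helicase loaders CDC6 and CDT1. CDC6 (chromosome 17, 40287633 to 40304657, GRCh38) was the licensing gene that was called, with TK. Its level was 67.5, 63.0, 71.4 and 62.5 CPM in TK A to D, and in the controls 42.1 CPM at lowest, 45.2 at the median and 48.0 at highest. The 4 TK libraries lay above all 7 controls. CDC6 rose with TK by log2 0.56 (SE 0.12, edgeR adjusted p = 0.0033). In TN the level was 68.6, 49.1, 48.4 and 47.7 CPM, so that TN A stood far above the other three, which lay near the top of the control range (log2 0.26, SE 0.12, adjusted p = 0.17). In DB it was 36.4, 37.5, 45.9 and 25.2 CPM and in COM 34.2, 34.7, 37.2 and 42.7 CPM. Most of these libraries were below the control median, but neither form was called (log2 -0.31 and -0.26). The SPH libraries, at 40.4, 52.6, 37.0 and 51.7 CPM, lay on both sides of the control range (log2 0.03, SE 0.13, adjusted p = 0.996). ORC1 and ORC6 had log2 values of 0.24 and 0.23 with TK, and CDT1 one of -0.04, none called.

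The helicase subset holds the 6 MCM ring subunits, CDC45, the 4 GINS subunits and MCM10, which activates the loaded ring. With TK 8 of 12 rose, with TN 4 rose, with DB 7 fell and with COM 2 fell. MCM4, a ring subunit, was at 186, 177, 181 and 188 CPM in TK. In DB it was at 104, 111, 119 and 87.2 CPM, and in COM at 107, 112, 115 and 108 CPM. The controls lay between 127 and 158 CPM, with a median of 133. MCM4 was thus above all controls in every TK library and below all controls in every DB and COM library. Its log2 fold change was 0.38 with TK (SE 0.09, edgeR adjusted p = 0.0033), -0.38 with DB (SE 0.09, adjusted p = 0.0059) and -0.31 with COM (SE 0.09, adjusted p = 0.0302), the COM call being lost in 5 of 11 fits with 1 library left out.

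MCM2, another ring subunit, was at 265, 232, 247 and 233 CPM in TK A to D, and the highest control reached 204 CPM. It rose with TK by log2 0.35 (SE 0.08, edgeR adjusted p = 0.0046). In DB it was at 122, 133, 175 and 110 CPM, with the controls at 150 to 204 CPM, and fell by 0.32 on the log2 scale (SE 0.08, adjusted p = 0.016), a call lost without DB A or DB D. DB C, the set 2 library, lay inside the control range. MCM2 was not called in the other forms, which overlapped the controls at 218, 168, 191 and 179 CPM in TN, 141, 139, 164 and 148 CPM in COM, and 150.1, 176, 178 and 169 CPM in SPH. MCM5 fell with DB by 0.34 on the log2 scale (SE 0.07, adjusted p = 0.0032), at 78.8, 88.2, 110 and 83.1 CPM against 103 to 129 CPM in the controls. With TK it rose by log2 0.22 (SE 0.07, adjusted p = 0.032), a call lost without TK A, TK C or Control E.

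CDC45, the factor that joins the MCM ring to the GINS complex (chromosome 22, 19479459 to 19520612), rose with both bipyramids. It stood at 42.5, 39.2, 41.3 and 39.9 CPM in TK and at 40.2, 33.6, 32.6 and 29.6 CPM in TN, and in the controls between 25.1 and 33.5 CPM with a median of 29.7. All TK libraries lay above the controls, and TN overlapped them. The rise was log2 0.39 with TK (SE 0.08, edgeR adjusted p = 0.002) and 0.33 with TN (SE 0.08, adjusted p = 0.0081), the TN call being lost without TN A. In DB, at 21.6, 20.6, 29.5 and 20.2 CPM, CDC45 fell by 0.26 on the log2 scale (SE 0.08, adjusted p = 0.039), a call lost in 9 of 11 fits with 1 library left out. COM (23.5, 23.1, 31.2 and 23.8 CPM) and SPH (25.1, 26.4, 29.6 and 26.5 CPM) were not called. In both DB and COM the C library was the highest. MCM10 rose more than any other helicase gene with TK, at 32.3, 30.7, 34.0 and 30.5 CPM against 14.9 to 24.1 CPM in the controls (log2 0.67, SE 0.13, adjusted p = 0.00071).

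The GINS subunits did not move alike. GINS2 fell with DB and COM and was not called with TK. It was at 29.04, 30.7, 37.3 and 25.9 CPM in DB and at 32.5, 28.1, 38.5 and 34.5 CPM in COM, with the controls at 34.8 to 51.5 CPM and a median of 42.2. The DB and COM libraries overlapped the lower end of the controls. GINS2 fell by 0.46 on the log2 scale with DB (SE 0.09, edgeR adjusted p = 0.0028), the largest fall among the members in that form, and by 0.33 with COM (SE 0.09, adjusted p = 0.034). The COM call was lost in 7 of 11 fits with 1 library left out. With TK its log2 fold change was 0.18 (SE 0.09, adjusted p = 0.2).

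GINS3, by contrast, was called with TN and not with TK. It was at 20.3, 18.7, 16.5 and 14.1 CPM in TN and 14.4, 14.5, 16.02 and 15.7 CPM in TK, with the controls at 11.4 to 14.6 CPM and a median of 13.3. TN D overlapped the controls and the other 3 TN libraries lay above them. The TN rise was log2 0.40 (SE 0.09, edgeR adjusted p = 0.0035) and the TK value 0.19 (SE 0.09, adjusted p = 0.17). The difference between TN and TK for GINS3 was itself not called. GINS4 rose with both bipyramids, by log2 0.43 with TK (SE 0.14, adjusted p = 0.033) and 0.42 with TN (SE 0.14, adjusted p = 0.042). The calls were lost in 6 and 8 of 11 fits with 1 library left out, and the TN value was -0.048 within set 2.

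**Figure D3:**
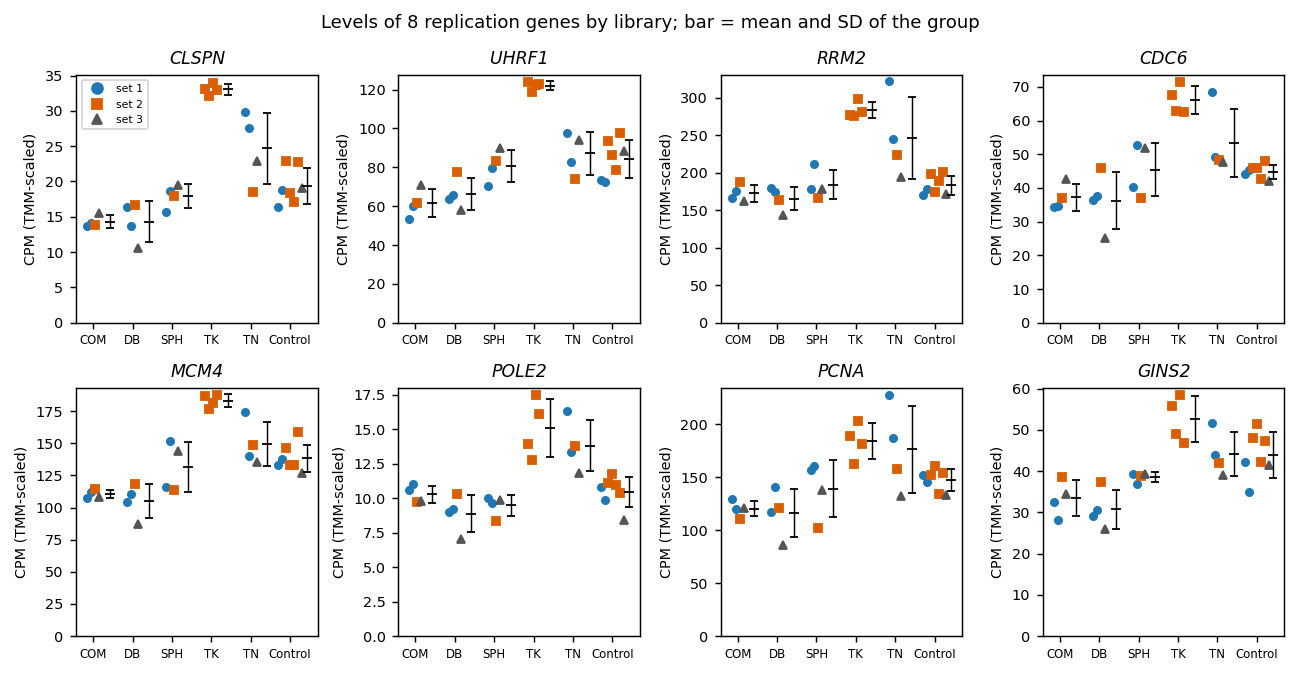
CPM of CLSPN, UHRF1, RRM2, CDC6, MCM4, POLE2, PCNA and GINS2 in every library of COM, DB, SPH, TK, TN and Control; bars give the mean and SD of the group (n = 4 per form, 7 controls), and symbols the library set. The 4 TK points sit above all controls for 7 of the 8 genes, GINS2 being the exception.

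The polymerase subset holds polymerase alpha (POLA1, POLA2) with its primase (PRIM1, PRIM2), the delta subunits POLD1 to POLD3 and the epsilon subunits POLE and POLE2. With TK 7 of 9 rose, with TN 2 rose, with DB 2 fell and with COM none was called. POLE2, the second epsilon subunit (chromosome 14, 49643555 to 49688422), was at 13.9, 12.8, 17.5 and 16.1 CPM in TK and 16.3, 13.3, 13.8 and 11.8 CPM in TN, against 8.41 to 11.7 CPM in the controls with a median of 10.8. In CPM every library of both bipyramids lay above every control. In TPM the TN libraries (14.2 to 18.8) overlapped the controls (11.5 to 16.1). It rose by log2 0.51 with TK (SE 0.10, edgeR adjusted p = 0.0011) and 0.43 with TN (SE 0.10, adjusted p = 0.0043). POLE, the catalytic subunit of the same enzyme, had log2 values of 0.04 with TK and -0.04 with TN, the lowest of all members with TN. POLE2 was not called in the other forms, at 8.99, 9.21, 10.3 and 7.03 CPM in DB, 10.6, 11.02, 9.71 and 9.76 CPM in COM and 10.01, 9.64, 8.37 and 9.86 CPM in SPH.

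PRIM1, the catalytic primase, was at 32.0, 30.0, 32.5 and 29.6 CPM in TK and 30.6, 25.01, 28.2 and 21.1 CPM in TN, against 16.4 to 24.6 CPM in the controls with a median of 20.97. It rose by log2 0.46 with each (SE 0.09, edgeR adjusted p = 0.0014 with TK and 0.0017 with TN). With COM its value was 0.16 (SE 0.09, adjusted p = 0.33), the highest of any member in that form. POLA1, the catalytic subunit of polymerase alpha, was at 34.8, 40.3, 36.2 and 42.7 CPM in TK against 20.4 to 30.9 CPM in the controls, and rose by log2 0.54 (SE 0.11, adjusted p = 0.0017). In the other forms POLA1 was not called, with log2 values of 0.27 in TN, 0.10 in SPH, -0.10 in DB and -0.15 in COM. Its levels there were 31.6, 26.5, 28.1 and 26.9 CPM in TN, 18.9, 27.4, 27.5 and 27.1 CPM in SPH, 22.97, 23.8, 25.3 and 16.1 CPM in DB and 18.5, 20.6, 23.9 and 22.1 CPM in COM. TN A alone lay above the controls, and DB D, COM A and SPH A below them.

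POLA2, the regulatory subunit of the same enzyme, was the polymerase gene with the clearest fall. It was at 19.04, 19.3, 17.9 and 16.1 CPM in DB, below all 7 controls, which lay between 20.2 and 27.1 CPM with a median of 24.7. It fell with DB by 0.43 on the log2 scale (SE 0.10, edgeR adjusted p = 0.0073). With TK it rose by log2 0.31 (SE 0.10, adjusted p = 0.035), a call lost in 5 of 11 fits with 1 library left out. POLA2 shares 2012 exon bases with AP000944.2, a gene annotated on the same strand, so part of its reads may belong there. Among the delta subunits POLD1 rose with TK (log2 0.28) and fell with DB (log2 -0.23, a call lost in 8 of 11 such fits), and POLD2 was not called in any form.

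The clamp subset holds PCNA, the ring that tethers polymerases to DNA, and RFC1 to RFC5, the loader that places it there. With TK 3 of 6 rose, with TN 1 rose, with DB 3 fell and with COM none was called. PCNA (chromosome 20, 5114953 to 5126626) was at 189, 162, 203 and 182 CPM in TK and 118, 141, 121 and 85.5 CPM in DB, with the controls at 134 to 161 CPM and a median of 152. TK lay just above the controls, and DB B lay within them. It rose with TK by log2 0.36 (SE 0.11, edgeR adjusted p = 0.021) and fell with DB by 0.39 on the log2 scale (SE 0.11, adjusted p = 0.021). The TK call was lost without TK A or TK C, and the DB call without DB A or DB D.

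In TN the PCNA level was 227, 187, 158 and 133 CPM, a spread wider than the whole control range (log2 0.21, SE 0.11, adjusted p = 0.21). In COM it was 129, 120, 111 and 121 CPM, below every control, but the fall was not called (log2 -0.32, SE 0.11, adjusted p = 0.074). In SPH it was 157, 160, 102 and 138 CPM, with SPH C alone below the controls.

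RFC3, a small subunit of the loader, was the highest-ranked member with TN. It was at 59.8, 45.8, 48.5 and 34.3 CPM in TN and 50.2, 48.3, 49.6 and 56.5 CPM in TK, against 28.2 to 39.2 CPM in the controls with a median of 36.9. It rose by log2 0.46 with TN (SE 0.09, edgeR adjusted p = 0.0017) and 0.47 with TK (SE 0.09, adjusted p = 0.0012), and had the highest value of any member in SPH (log2 0.12) and in DB (log2 0.02). RFC1, the large subunit, was not called in any form. RFC4 and RFC5 share 21 and 186 exon bases with the more abundant opposite-strand genes EIF4A2 and WSB2, and their counts are uncertain because no source used here gives the strand setting.

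Okazaki fragments are trimmed by the flap nuclease FEN1 and joined by the ligase LIG1. FEN1 (chromosome 11, 61792637 to 61797244) was at 98.7, 88.6, 105 and 96.6 CPM in TK and 52.7, 53.4, 61.0 and 42.8 CPM in DB, against 58.4 to 77.1 CPM in the controls with a median of 66.9. TK lay clear of the controls, and DB C overlapped them. FEN1 rose with TK by log2 0.53 (SE 0.11, edgeR adjusted p = 0.0023) and fell with DB by 0.36 on the log2 scale (SE 0.12, adjusted p = 0.044). The DB call was lost in 9 of the 11 fits with 1 library left out. In TN (99.0, 78.8, 62.2 and 67.8 CPM) the A and B libraries lay above the controls and the C and D libraries among them. FEN1 was not called in TN, in COM (53.7, 45.8, 53.2 and 60.4 CPM) or in SPH (59.4, 72.5, 54.2 and 71.3 CPM). FEN1 shares 166 exon bases with TMEM258 on the opposite strand. LIG1 fell with DB (log2 -0.24, SE 0.07, a call lost in 5 of 11 such fits) and was not called in another form.

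RPA, the heterotrimer that coats single-stranded DNA, has RPA1, RPA2 and RPA3 as subunits. RPA2 was the member with the smallest adjusted p in DB. It was at 26.04, 27.4, 25.7 and 23.7 CPM in DB and 38.3, 33.8, 38.8 and 38.0 CPM in TK, against 29.4 to 35.4 CPM in the controls with a median of 31.8. All DB libraries lay below the controls, and TK B lay among them. RPA2 fell with DB by 0.34 on the log2 scale (SE 0.07, edgeR adjusted p = 0.0026) and rose with TK by log2 0.25 (SE 0.07, adjusted p = 0.017), the TK call being lost without TK C. It was also the lowest member in SPH and the only one there at an unadjusted p under 0.05 (log2 -0.19, SE 0.07, adjusted p = 0.56). RPA2 was not called in TN (37.1, 32.5, 31.3 and 31.2 CPM) or COM (31.0, 28.3, 26.4 and 30.7 CPM). RPA3 was the lowest member with TK (log2 -0.11, SE 0.11, adjusted p = 0.55).

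Nucleotide supply was described by both subunits of ribonucleotide reductase (RRM1, RRM2), which makes deoxynucleotides, thymidylate synthase TYMS and thymidine kinase TK1. RRM2 (chromosome 2, 10120698 to 10131419) had the smallest adjusted p of any member with TK. It was at 277, 276, 298 and 281 CPM in TK and 322, 244, 223 and 194 CPM in TN, against 170 to 201 CPM in the controls with a median of 178. TK lay far above the controls, and in TN only the D library overlapped them. RRM2 rose by log2 0.62 with TK (SE 0.09, edgeR adjusted p = 4.7e-05) and 0.42 with TN (SE 0.09, adjusted p = 0.0021). In TPM, without a set term, its means were 138 in TK, 102 in TN and 104 in the controls. The other forms overlapped the controls and were not called, at 180, 175, 163 and 144 CPM in DB, 166, 175, 187 and 162 CPM in COM, and 178, 211, 167 and 178 CPM in SPH (log2 -0.15, -0.08 and 0.01). RRM1, the other subunit, had a value of 0.12 with TK (SE 0.07, adjusted p = 0.23) and rose with TN by log2 0.20 (SE 0.07, adjusted p = 0.049), a call lost in 10 of 11 fits with 1 library left out. In TPM the RRM1 mean was 65.4 in TN and 72.1 in the controls.

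TYMS showed the reverse pattern of calls, with a fall in COM and DB and no call in TK or TN. It was at 77.3, 70.8, 76.1 and 77.7 CPM in COM and 73.8, 72.9, 84.5 and 69.0 CPM in DB, and the lowest control was at 86.1 CPM, the median at 92.8 and the highest at 105. Both forms lay below every control. TYMS fell by 0.28 on the log2 scale with COM (SE 0.07, edgeR adjusted p = 0.012) and 0.30 with DB (SE 0.07, adjusted p = 0.0072), and its value with TK was 0.16 (SE 0.07, adjusted p = 0.13). The COM call was lost without COM B or COM C. TYMS shares 967 exon bases with ENOSF1 on the opposite strand, whose counts came to 44.9% of those of TYMS, so reads of these 2 genes cannot be told apart there. TK1, the salvage kinase, was not called in any form.

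The fork protection complex of CLSPN (claspin, the checkpoint mediator), TIMELESS and TIPIN travels with the helicase. All 3 rose with TK, TIPIN rose with TN, and CLSPN fell with DB and COM. The TIMELESS call was lost without TK A, TK B or Control E, and the TN call of TIPIN without TN A or Control A. CLSPN (chromosome 1, 35720218 to 35769967) had the largest rise of any member with TK and the largest fall with COM. It was at 33.1, 32.1, 34.0 and 32.96 CPM in TK, 29.8, 27.6, 18.5 and 22.9 CPM in TN, 16.4, 13.7, 16.7 and 10.6 CPM in DB and 13.6, 14.1, 13.9 and 15.6 CPM in COM. The controls ran between 16.3 and 22.9 CPM, with a median of 18.8. All TK libraries lay above and all COM libraries below the controls, and TN split, with A and B above and C and D at control levels. SPH, at 15.7, 18.7, 17.9 and 19.6 CPM, overlapped the controls (log2 -0.11, SE 0.13, adjusted p = 0.966).

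CLSPN rose with TK by log2 0.76 (SE 0.12, edgeR adjusted p = 0.0002) and fell by 0.43 on the log2 scale with COM (SE 0.13, adjusted p = 0.044) and 0.44 with DB (SE 0.13, adjusted p = 0.028). Its value with TN was 0.36 (SE 0.12, adjusted p = 0.059). The COM call was lost in 7 and the DB call in 4 of 11 fits with 1 library left out, and the TK call in none.

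Chromatin and turnover at the fork were described by UHRF1, which recruits maintenance DNA methylation to new DNA, DTL, the substrate receptor of the ligase that degrades CDT1, and CHAF1A and CHAF1B, subunits of the histone chaperone CAF-1. All 4 rose with TK, DTL and CHAF1B rose with TN, UHRF1 and CHAF1A fell with DB, and UHRF1 fell with COM. The TN call of CHAF1B was lost in 5 and the DB call of CHAF1A in 8 of 11 fits with 1 library left out. UHRF1 (chromosome 19, 4903080 to 4962154) was at 124, 119, 122 and 123 CPM in TK, 63.8, 65.9, 77.6 and 58.1 CPM in DB and 53.5, 60.1, 61.7 and 71.1 CPM in COM. The controls lay between 72.3 and 97.4 CPM with a median of 86.5. Every TK library was above and every COM library below all controls, and DB C overlapped them.

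UHRF1 rose with TK by log2 0.50 (SE 0.09, edgeR adjusted p = 0.00054) and fell by 0.43 on the log2 scale with COM (SE 0.09, adjusted p = 0.0042) and 0.32 with DB (SE 0.09, adjusted p = 0.025). With TN, at 97.8, 83.0, 73.9 and 93.9 CPM, it was not called (log2 0.08, SE 0.09, adjusted p = 0.6), nor with SPH, at 70.2, 79.6, 83.5 and 89.7 CPM. The DB call was lost in 4 of 11 fits with 1 library left out. DTL was at 70.5, 73.8, 65.9 and 71.8 CPM in TK and 82.1, 61.3, 69.7 and 55.2 CPM in TN, against 44.6 to 57.9 CPM in the controls with a median of 53.4. It rose by log2 0.45 with TK (SE 0.09, adjusted p = 0.001) and 0.38 with TN (SE 0.08, adjusted p = 0.0041), the TN call being lost without TN A. In TPM, which carry no set term, the DTL mean was 22.3 in TN and 23.9 in the controls. The TN rise of DTL was thus not seen in TPM. Of the other members called with TN, RRM1 and RRM2 also had lower mean TPM in TN than in the controls. The rest had higher ones.

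Set side by side, the helicase, polymerase, clamp and nucleotide supply subsets had median log2 fold changes of 0.32, 0.31, 0.26 and 0.20 with TK. With TN they were 0.16, 0.20, 0.20 and 0.22. With DB they were -0.31, -0.19, -0.23 and -0.22, and with COM -0.20, -0.15, -0.13 and -0.18. The helicase had the median farthest from 0 of these 4 in TK, DB and COM, and the nearest to 0 in TN. Within each subset the members differed by more than the subset medians did, as for RRM2 and RRM1 with TK, and no difference between subsets was tested. Over all 9 subsets the highest TK medians were those of fork protection at 0.49 and of chromatin and turnover at 0.44, and the lowest that of RPA at 0.15.

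**Figure D4:**
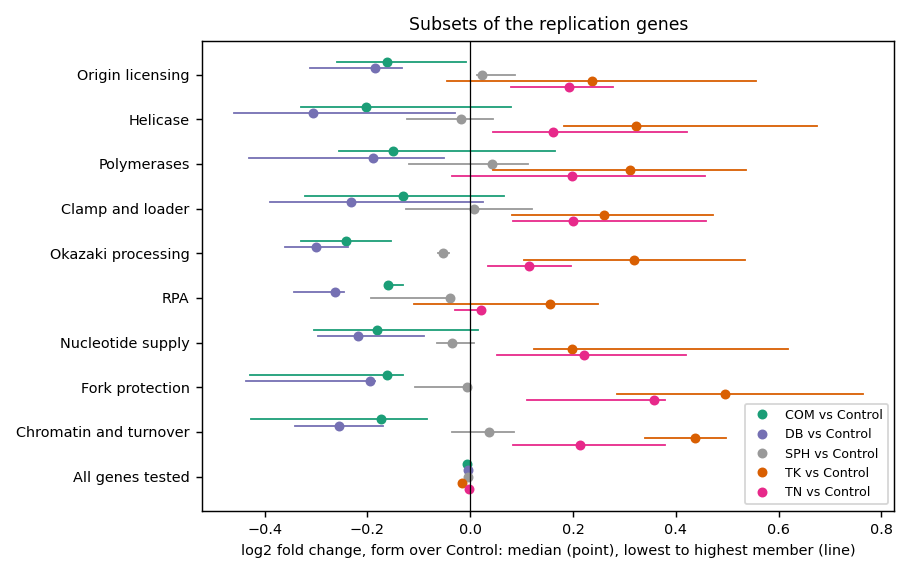
Median log2 fold change over Control (points) and lowest to highest member (lines) of the 9 subsets and, as a median only, of all 16173 genes tested, for COM, DB, SPH, TK and TN. TK and TN medians lie right of 0 and DB and COM medians left of it in every subset, while the all-gene medians lie at 0.

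Compared with each other at the same dose, the bipyramids had most members called higher than in DB and COM, and a minority than in SPH. All 10 pairs of forms were tested in the same fit. Against DB, 40 of the 47 were called higher in TK and 40 in TN, where 8.9% and 5.68% of all genes were called higher. Against COM, 37 were called higher in TK and 27 in TN, where 6.87% and 2.62% of all genes were called higher. Against SPH, 14 were called higher in TK and 4 in TN, where 2.54% and 0.717% of all genes were called higher. No member was called lower in a bipyramid form in any of these 6 comparisons.

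CLSPN differed most between forms. It was higher in TK than in DB by log2 1.20 (SE 0.15, edgeR adjusted p = 1.63e-05) and than in COM by 1.19 (SE 0.16, adjusted p = 3.08e-05), and higher in TN than in COM by 0.79 (SE 0.14, adjusted p = 0.0031). UHRF1 was higher in TK than in COM by log2 0.93 (SE 0.11, adjusted p = 1.44e-05) and than in DB by 0.81 (SE 0.11, adjusted p = 2.85e-05). RRM2 was higher in TK than in SPH by 0.61 (SE 0.11, adjusted p = 0.00135), and POLE2 in TN than in SPH by 0.54 (SE 0.11, adjusted p = 0.0118). In TN over DB the smallest adjusted p-values belonged to MCM5 (log2 0.52, SE 0.08, adjusted p = 0.000237) and CDC45 (log2 0.59, SE 0.09, adjusted p = 0.000287).

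Between the remaining 4 pairs no member was called. For TN against TK, thin against thick crystals of the same dihydrate, the smallest adjusted p was 0.138, the median log2 difference was -0.10, and the 95% intervals of the 47 differences spanned -0.72 to 0.43. For COM against DB the smallest adjusted p was 0.289 and the intervals spanned -0.31 to 0.51. For COM against SPH they were 0.066 and -0.61 to 0.34, and for DB against SPH 0.053 and -0.70 to 0.21. Among all genes 0.216%, 0.198%, 0.544% and 0.247% were called in these 4 pairs, in the order given. At an unadjusted p under 0.05 the counts of members were 7, 2, 15 and 31, and DESeq2 called 1, 0, 1 and 4. Within set 2, TN C alone had a median of 0.03 over the same-set controls and the TK libraries 0.23 to 0.30. With a block by title letter in place of the set term 5 members were called lower in TN than in TK. Within set 3, DB D alone had a median of -0.36 over Control G and SPH D alone one of 0.09. With no filter on low counts the counts were 1, 0, 1 and 5. Shares among all genes are not given for these other fits, so their counts are not set against a background. The intervals leave room for differences as large as several of the called ones, so the forms of a pair are not shown to act alike.

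The pairwise counts also depended on single libraries. TK against SPH called 4 members without SPH C and 9 without SPH A. TN against COM called 7 without TN A and 9 without COM A or without COM B, and TN against DB called 22 without TN A. TN against SPH called 0 without SPH C or TN A, 1 without SPH A and 10 without TN C. TN against TK called 1 without TN A, and DB against SPH called 3 without DB C and 1 without SPH C. TK against COM and TK against DB kept between 33 and 41 calls without any 1 library.

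The library sets differed at baseline in the same genes. Control libraries of set 2 had 12 members called higher than those of set 1 and none lower, with a median log2 difference of 0.22, where 6.47% of all genes were called higher. MCM7 had the largest such difference, with means of 316 CPM in the set 2 controls and 225 CPM in the set 1 controls (log2 0.49, SE 0.08, edgeR adjusted p = 0.000561). Each library is therefore also given against the mean of the controls of its own set, as the median over the 47 genes on the log2 scale. The TK libraries lay at 0.30, 0.23, 0.30 and 0.23, all in set 2. The TN libraries lay at 0.46, 0.20, 0.03 and 0.10, with A and B in set 1, C in set 2 and D in set 3.

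The DB libraries lay at -0.21, -0.18, -0.11 and -0.36 and the COM libraries at -0.15, -0.20, -0.20 and -0.06. Both forms were below 0 in every library. The SPH libraries lay at -0.05, 0.14, -0.15 and 0.09, on both sides of 0, and the controls between -0.09 and 0.06. Each control counts in the mean of its own set, which draws the controls toward 0. Control G, the only control of set 3, is at 0 by construction, and the set 3 libraries are set against it alone. The control values are thus no measure of the spread to expect in the forms.

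**Figure D5:**
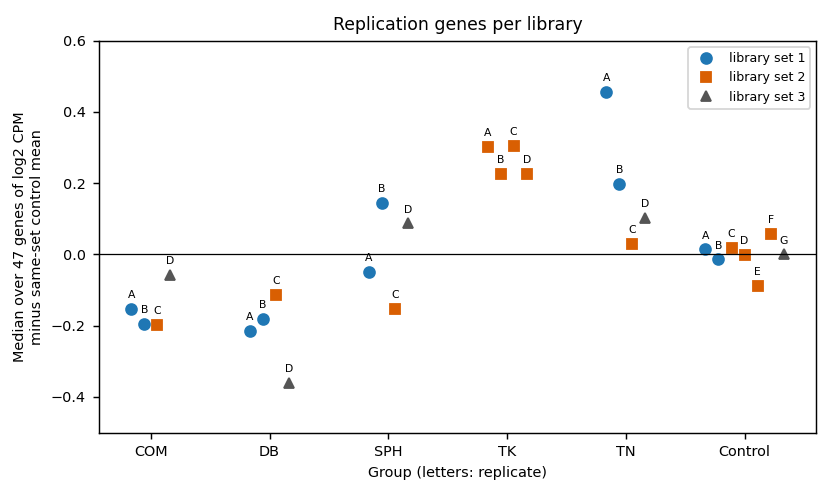
Median over the 47 genes of log2 CPM minus the mean of the controls of the same library set, for each library of COM, DB, SPH, TK, TN and Control; symbols mark the set and letters the replicate. The 4 TK libraries lie at 0.23 to 0.30, the TN libraries between 0.03 and 0.46, and all DB and COM libraries below 0. Controls count in the mean of their own set, so Control G, the only control of set 3, lies at 0.

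Within a single set the tests had fewer libraries, with 1 library of each form but TK in sets 2 and 3 and 1 control in set 3, and more members than in the whole fit were called for TN in set 1. TK within set 2 had 24 members called higher, where 6.41% of all genes were. TN had 24 called higher within set 1 (7.48% of all genes), none within set 2 (5.05% of all genes in either direction) and none within set 3 (0.0989%), with medians of 0.36, 0.03 and 0.10. The difference between the set 1 and set 2 effects of TN was itself called for 7 members, where 5.81% of all genes were called. DB had none called within set 1 (2.1% of all genes) or set 2 (0.526%) and 5 called lower within set 3 (0.903% lower), namely MCM3, GINS1, RFC4, CLSPN and UHRF1. Those calls set DB D alone against Control G alone, with the spread taken from the other groups and sets, and have no replicate check. The DB medians were -0.18, -0.12 and -0.36. COM had none called in any set (4.09%, 0.501% and 0.0989% of all genes), with medians of -0.17, -0.21 and -0.06. Where no member was called, edgeR gave an unadjusted p under 0.05 for 8 and 3 members for TN in sets 2 and 3, 14 and 6 for DB in sets 1 and 2, and 15, 14 and 1 for COM in sets 1 to 3; DESeq2 was not run within sets. Without the set term 30 members were called for TK, 5 for TN, 14 for DB, 4 for COM and 0 for SPH, where 7.93% and 2.47% of all genes were higher, 2.49% and 1.53% lower, and 0.0433% called with SPH.

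Of 41 other replication genes outside the 47, 8 rose and 1 fell with TK, 7 rose with TN, 7 fell with DB, 6 fell and 1 rose with COM, and none was called with SPH. Among all 16173 genes tested 1301 rose and 1186 fell with TK, and 1107 rose with TN. With DB 663 fell, with COM 391 fell and 638 rose, and with SPH 18 were called. ORC5, another origin recognition subunit, rose by log2 0.39 with TK (SE 0.08, edgeR adjusted p = 0.0013) and 0.38 with TN (SE 0.07, adjusted p = 0.0016). POLE3, a small subunit of polymerase epsilon, averaged 77.6 ± 6.1 CPM in TK and 58.2 ± 3.5 CPM in the controls (SD, n = 4 and 7). It rose with TK by log2 0.40 (SE 0.08, adjusted p = 0.0015). POLD4, the smallest delta subunit, went the other way, at 12.4 ± 1.02 CPM in TK and 22.1 ± 4.85 CPM in the controls (log2 -0.59, SE 0.11, adjusted p = 0.00072), and was higher with COM by log2 0.33 (SE 0.10, adjusted p = 0.045).

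NASP, a chaperone of histones H3 and H4, averaged 131.5 ± 26.4 CPM in DB, 133 ± 14.6 CPM in COM and 187 ± 22.9 CPM in the controls (SD, n = 4, 4 and 7). It fell by 0.46 on the log2 scale with DB (SE 0.10, edgeR adjusted p = 0.0035) and 0.45 with COM (SE 0.10, adjusted p = 0.005). DNMT1, the maintenance methyltransferase that UHRF1 recruits, fell with COM by 0.32 (SE 0.06, adjusted p = 0.0025), and TICRR, which helps load CDC45, by 0.45 (SE 0.11, adjusted p = 0.011). GMNN, the inhibitor of CDT1, fell with DB by 0.45 (SE 0.11, adjusted p = 0.0088), and the histone chaperone ASF1B by 0.37 (SE 0.10, adjusted p = 0.021). DCK, the deoxycytidine kinase, rose with TN by log2 0.29 (SE 0.08, adjusted p = 0.015), and MCMBP, which binds MCM subunits, by 0.23 (SE 0.07, adjusted p = 0.021).

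Many genes of the G1/S switch rose in both bipyramid forms. The list holds inhibitors of the switch (RB1, RBL1, CDKN1A and CDKN1B) beside cyclins, their kinases and E2F factors, so its count is not a measure of entry into S phase. Of 14 tested, 8 rose with TK and 7 with TN, and none fell, where 8.04% and 6.84% of all genes rose. The log2 value was above 0 for all 14 in both forms, inhibitors included. RBL1 averaged 29.6 ± 2.17 CPM in TK, 24.6 ± 4.76 in TN and 18.2 ± 2.61 in the controls (SD, n = 4, 4 and 7). Cyclin E2 (CCNE2) rose by log2 0.98 with TK (SE 0.18, edgeR adjusted p = 0.00072) and 0.81 with TN (SE 0.17, adjusted p = 0.003). E2F2 averaged 13.1 ± 1.65 CPM in TK and 6.51 ± 1.26 CPM in the controls (SD, n = 4 and 7), a rise of 0.88 (SE 0.16, adjusted p = 0.00051). With DB and with COM the one called G1/S gene was the cyclin kinase inhibitor CDKN1A, which rose by 0.39 (SE 0.08) and 0.35 (SE 0.08). E2F1, CCNE1 and the other G1/S genes were not called there. Among all 16173 genes tested 957 rose with DB and 638 with COM.

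Cell division genes were called most often in COM. Of 22 cell division genes 12 fell with COM, 6 fell with DB, 1 fell with SPH and 1 with TN, and 3 rose with TK. Among all 16173 genes tested 391 fell with COM, 663 with DB, 5 with SPH and 789 with TN, and 1301 rose with TK. KIF20A, a kinesin of cytokinesis, averaged 89.5 ± 7.79 CPM in COM, 96.3 ± 3.54 in DB, 105 ± 7.1 in SPH, 111 ± 12.4 in TN and 132 ± 7.93 in the controls (SD, n = 4 per form, 7 controls). It was the cell division gene called lower in each of those 4 forms, with log2 values of -0.54, -0.43, -0.31 and -0.22. The proliferation marker MKI67 was not called in any form.

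The members were also counted by the E2F-type letters in their promoters. With TK 12 of 20 members with the letters and 12 of 21 without them rose, at medians of 0.33 and 0.29. With TN 4 and 7 rose, with DB 10 and 7 fell, and with COM 4 and 0 fell. These counts describe the members, and no test of the split was made.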

How the data were processed

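Messenger RNA of 27 libraries was measured by polyA RNA-seq. Per the submitters' processing notes, reads were handled with Trim Galore, RSEM and Bowtie2 on GRCh38; versions, annotation and strand are not stated there. The authors deposited RSEM expected counts and TPM per gene. Expected counts were rounded and tested with edgeR 4.0.16 (R 4.3.3, limma 3.58.1), using filterByExpr, TMM scaling, the quasi-likelihood test, and group and library set as terms over all 27 libraries, with Benjamini-Hochberg adjustment over 16173 genes. CPM were computed from the scaled counts, and deposited TPM served for levels per length and markers. Sets are runs of serial numbers 1 to 10, 11 to 22 and 23 to 27 in the labels. The labels do not say what they are. Alternatives were DESeq2 1.42.0, other scaling, no filter, no set term, single sets, a fragment length covariate, a replicate block and leaving out each library. The code was tested on simulated data. Genes and lists were chosen with earlier results of these data known.

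Values per library were given for up to 6 called members with the smallest p in each form, the member with the smallest joint p in each of 9 subsets, PCNA, MCM2, RRM2 and POLA1, and the largest rise and fall in each form. For pairs of forms up to 2 called members were named, and for other replication genes up to 3 a form; G1/S and cell division genes, POLD4 in COM, MCMBP and the remaining members named beside these were chosen after their values were seen. Coordinates are from GENCODE 29 (GRCh38), in which 47 of 47 members were found. Of these, at least 15 share exon bases with an opposite-strand gene, counted by the gene with the largest overlap only. Named pseudogenes held at most 0.0306% of a member's counts.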

Additional observations from a re-analysis of the deposited data

Results flagged for a closer look

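Single libraries stood apart from the other 3 of their form in 7 of 165 groups of 4 values, on the log2 scale over the controls of the same set, and chance flags about 1 in 20 such groups. MCM4 was at 0.362 in TN A and at 0.047 to 0.094 in the other TN libraries. PCNA was at -0.557 in SPH C and at 0.046 to 0.111 in the other SPH libraries. FEN1 was at -0.555 in DB D, with the other DB libraries at -0.247 to -0.208, and UHRF1 at -0.603 in DB D, with the others at -0.196 to -0.143. RPA2 was at 0.068 in TK B, with the other TK libraries at 0.239 to 0.268. The median of the licensing genes was 0.5 in TN A and 0.087 to 0.123 in the other TN libraries, and that of the clamp genes -0.182 in COM B and -0.073 to -0.06 in the other COM libraries.

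The TN effect differed between set 1 (TN A and B) and set 2 (TN C) for 7 of the 47 members by an interaction test in edgeR with adjustment over all genes. The difference, set 1 minus set 2 on the log2 scale, was 0.851 for CLSPN (SE 0.206, adjusted p = 0.0258) and 0.678 for ORC6 (SE 0.166, adjusted p = 0.0272). It was 0.586 for MCM7, 0.585 for UHRF1, 0.687 for FEN1, 0.687 for CHAF1A and 0.567 for CHAF1B, with adjusted p between 0.0233 and 0.0443. Among all genes 5.81% were called in this test for TN, and at most 0.0866% for COM, DB and SPH. TN B held the liver-type transcripts and TN C the long fragments named in the report, and their part in the TN difference was not tested. No member was called in this test for COM, DB or SPH, with 0, 2 and 8 members at an unadjusted p under 0.05; DESeq2 was not run on it.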

How the results depend on the processing

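No member call in a form against Control changed its direction except 3 in a single set: within set 2, LIG1 was at 0.011 in DB, GINS4 at -0.048 and CHAF1B at -0.057 in TN. Other counts of called members are given where they moved by over 1.5 times. Unless named in the report, their shares among all genes are not given, so these counts are not set against a background. In sets 2 and 3 each form but TK is 1 library. Within set 1, COM and DB had 0, TN 24 and TN against SPH 13. Within set 2, COM, DB, TN, TN against COM, TN against DB and TN against SPH had 0, TK against COM 23, TK against DB 17 and TN against TK 8, all lower in TN. Within set 3, COM, TN, TN against COM and TN against SPH had 0, DB 5, TN against DB 10 and DB against SPH 17. Without the set term TN had 5, TN against COM 9, TK against SPH 32, TN against SPH 0 and TN against TK 1. DESeq2 gave 10 for COM, 1 for COM against SPH, 4 for DB against SPH, 23 for TK against SPH, 8 for TN against SPH and 1 for TN against TK. With no filter on low counts the count was 9 for COM, 1 for COM against SPH, 5 for DB against SPH, 13 for TN against SPH and 1 for TN against TK. With fragment length as a covariate it was 9 for DB and 1 for COM against SPH.

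Same-letter deviations correlated at -0.238 to 0.546 (median 0.135), with 33 of 60 pairs over 0.1, and different-letter ones at -0.575 to 0.489 (median -0.052), with 59 of 240 over 0.1. The deviations were not adjusted for the set, and in COM, DB, SPH and TN the letters follow the sets, so letter and set are mixed here. A pairing by letter was thus neither shown nor excluded, and the main fit used none. A replicate block by letter in place of the set term gave 2 for COM, 7 for DB, 2 for TN, 7 for TN against COM, 36 for TK against SPH, 0 for TN against SPH and 5 for TN against TK. Without 1 library at a time the lowest and highest counts were 1 and 8 for COM, 6 and 24 for DB, 22 and 30 for TK, 5 and 19 for TN, and 0 throughout for SPH. They were 33 and 38 for TK against COM, 39 and 41 for TK against DB, 4 and 19 for TK against SPH, 7 and 35 for TN against COM, 22 and 42 for TN against DB, 0 and 10 for TN against SPH, 0 and 3 for DB against SPH and 0 and 1 for TN against TK. In the joint tests they were 40 and 43 over 6 groups and 39 and 43 over the forms. A form or control group left with 1 library in a set is assumed to vary like the others. The causes were not tested.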
